A study of Mus musculus with 7 samples.

Results

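The genes described here are the subunits, regulators and assembly chaperones of the proteasome. They were taken as every gene whose symbol is Psma, Psmb, Psmc, Psmd, Psme, Psmf or Psmg followed by a number, provided that the LPS table lists it as protein coding and the AAV table also holds it. The rule found 48 genes, out of 48440 in the LPS table and 55352 in the AAV table. By role they were 8 alpha and 7 constitutive beta subunits of the 20S core, 5 inducible subunits (Psmb8, Psmb9, Psmb10, Psme1 and Psme2), 6 ATPases and 11 non-ATPases of the 19S cap, 3 other regulators, 7 assembly chaperones and the thymus-specific Psmb11. RNA was sequenced from wild-type mouse bone-marrow-derived macrophages (BMDMs), which are grown from marrow cells with M-CSF, here at 20 ng per mL in all 7 samples. In the first experiment BMDMs received no LPS (0 h) or LPS, the endotoxin of Gram-negative bacteria, at 100 ng per mL for 2 h or 4 h. There was 1 library per time point, so no difference between times could be checked against replicates and none has a p-value. In the second experiment cells were kept for 48 h after transduction with adeno-associated virus (AAV) particles that carried GFP (AAV-GFP, 2 samples) or Shisa3, which encodes a transmembrane protein (AAV-SHISA3, 2 samples), both behind the broadly active CAG promoter. No label of these 4 samples names LPS. None says whether samples of a group came from separate cultures or mice, so p-values measure only the spread between these samples, which may be technical.

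The proteasome cuts ubiquitin-tagged proteins into peptides. Its barrel-shaped 20S core has outer rings of alpha subunits, which gate the entrance, and inner rings of beta subunits, some of which cut, while the 19S cap binds ubiquitin chains and its ATPases unfold and thread the substrate. In cells exposed to interferons, Psmb8, Psmb9 and Psmb10 take the places of the cutting subunits Psmb5, Psmb6 and Psmb7 in newly built cores, called immunoproteasomes, and Psme1 and Psme2 form a ring that can open the core without the cap. The peptides feed the class I pathway, by which a cell shows pieces of its proteins to CD8+ T cells.

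The stretches around the start sites of 4 members are shown first. They were picked because each holds a match to a different motif, among genes past 2-fold higher at 4 h of LPS, and are not typical of those genes. RefSeq windows (GRCm38.p6) were found for 40 of the 48 genes, 43 windows in all, each from 250 bases before to 50 bases after a start site. The submitters' notes name mm9, whose coordinates were not used here. Psma8, Psmb1, Psmb2, Psmb7, Psmc3, Psmd3, Psmd7 and Psmg2 were not matched. Capitals mark the match. Psme1 (chr14:55578244-55578543, plus strand) holds an interferon-response-type match on the reverse strand, from base 9 to base 18 after the start. Psmb8 (chr17:34197945-34198244, plus strand) holds a GAS-type match that begins 97 bases before the start. Psma6 (chr12:55398575-55398874, plus strand) holds a kappaB-type match, readable on both strands, that begins 70 bases before the start. The other RefSeq window of Psma6 (chr12:55383972-55384271) holds 0 kappaB-type and 2 CCAAT matches. Psmb6 (chr11:70525107-70525406, plus strand) holds an antioxidant-type match that begins 9 bases before the start.
Psme1: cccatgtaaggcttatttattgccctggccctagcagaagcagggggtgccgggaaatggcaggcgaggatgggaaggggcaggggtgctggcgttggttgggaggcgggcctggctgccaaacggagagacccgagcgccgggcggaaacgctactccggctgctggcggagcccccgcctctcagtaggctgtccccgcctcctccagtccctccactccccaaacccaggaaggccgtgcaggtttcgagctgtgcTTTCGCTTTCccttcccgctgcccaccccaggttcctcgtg
Psmb8: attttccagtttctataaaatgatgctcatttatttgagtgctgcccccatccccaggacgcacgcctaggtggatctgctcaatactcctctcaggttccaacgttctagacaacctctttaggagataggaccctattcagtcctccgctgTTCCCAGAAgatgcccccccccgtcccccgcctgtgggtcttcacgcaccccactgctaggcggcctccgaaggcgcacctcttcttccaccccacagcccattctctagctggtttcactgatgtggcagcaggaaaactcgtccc
Psma6: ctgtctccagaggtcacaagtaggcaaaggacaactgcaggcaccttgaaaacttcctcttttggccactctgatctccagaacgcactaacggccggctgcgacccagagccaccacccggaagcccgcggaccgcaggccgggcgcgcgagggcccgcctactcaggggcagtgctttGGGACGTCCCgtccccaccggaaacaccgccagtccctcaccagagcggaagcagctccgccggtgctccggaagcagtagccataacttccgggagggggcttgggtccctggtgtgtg
Psmb6: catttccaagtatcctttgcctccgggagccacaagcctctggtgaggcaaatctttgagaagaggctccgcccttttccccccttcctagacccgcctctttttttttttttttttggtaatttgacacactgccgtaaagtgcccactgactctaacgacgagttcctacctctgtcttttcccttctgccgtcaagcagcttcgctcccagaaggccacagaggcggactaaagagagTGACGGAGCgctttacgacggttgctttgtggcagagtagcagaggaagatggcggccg

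The letters searched, on both strands, were GAAANNGAAA for the interferon-stimulated response element, TTCNNNGAA for the GAS element, GGGANNNNCC for kappaB, TGACNNNGC for an antioxidant-type element and CCAAT. The 4 matches printed do not overlap a match to another of these motifs. Psme2 (in both of its windows) and Psmb10, the genes with the largest 4 h change of all members, held 0 matches to any of the 5. So did Psma4, Psma5, Psmb4, Psmc4, Psmc5 and Psmd6 among the other genes past 2-fold higher at 4 h. Of all 27025 genes with a window of this length, 3.99% held the interferon-response letters in at least 1 window, 9.55% the GAS letters, 22.9% the kappaB letters, 14% the antioxidant-type letters and 41.1% CCAAT. Among the 5 inducible genes, 1 held the interferon-response letters (Psme1), 1 the GAS letters (Psmb8), 1 CCAAT (Psmb9) and 0 either of the other motifs. Among the 25 constitutive 20S and 19S genes with a window, 2 held the interferon-response letters, 1 the GAS letters, 8 the kappaB letters, 4 the antioxidant-type letters and 10 CCAAT. A match is a run of letters only, and it depends on the start site. The main GENCODE M21 transcript begins 434 bases upstream of the RefSeq start for Psmb9, 405 for Psmb8, 134 for Psme1 and 50 for Psma6. For Psmb9 and Psmb8 that start lies outside the window searched. It lies 52 bases upstream for Psmb10 and 66 for 1 window of Psme2, so an absence of matches depends on the start site too.

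The LPS values are normalised read counts, each a read count divided by 1 factor for its library. All of them (100%, to within 0.01 reads) were whole multiples of 1 step per library, so the reads could be recovered. The 0 h library held 15588502 reads, the 2 h library 7263258 and the 4 h library 32659392. Shisa3, the transgene, was at 7.88 and 10.8 TPM (AAV-GFP) against 12.3 and 17.8 TPM (AAV-SHISA3), a log2 difference of 0.63 that did not pass (limma adjusted p = 0.138, and 0.0287 to 0.39 over 11 fits, of which 1, with the replicate number as a block, passed). Of the other genes checked against the labels, Tnf and Il1b passed in the main fit as higher with AAV-SHISA3. Their log2 differences were 0.73 (limma adjusted p = 0.0179) and 1.65 (limma adjusted p = 0.0361). Il6, with a difference of 0.53, did not pass (limma adjusted p = 0.0568). The macrophage markers Adgre1, Csf1r and Lyz2 were abundant in all 7 libraries, and Cd3e of T cells was at 0 in all 7. The summed level of 10 macrophage markers was 34629, 24190.2 and 19362 RPM (reads scaled to a common library total) at 0, 2 and 4 h. That of 6 T cell markers, Cd3e among them, was 12.8, 15.6 and 5.6 RPM in the same order. In the AAV samples it was 5.85 and 7.27 TPM (AAV-GFP) against 8.87 and 10.5 TPM (AAV-SHISA3). The summed level of 8 neutrophil markers was 545 and 513 TPM (AAV-GFP) against 966 and 598 TPM (AAV-SHISA3). The part of any of these cell types in the results was not tested. In bulk RNA, fewer cells of a type and less RNA per cell cannot be told apart.

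After LPS the inducible subunits were the group with the highest median change. On the authors' scale, the smallest fold among the 5 was 2.82 at 2 h and 3.72 at 4 h, both for Psme1. Their median log2 change was 2.03 at 2 h and 2.73 at 4 h, against -0.05 and -0.04 for the 17854 genes whose mean value reached 1. Log2 changes are of the value plus 1, and past 2-fold means a log2 change of at least 1 in size. Values in brackets after a fold are exact 95% counting intervals, which cover counting error only, since cultures were not replicated and reads carry no molecular identifiers.

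Psme2, a subunit of the activator ring, had the largest 4 h change of the members. Its normalised read count was 656 at 0 h, 4252 at 2 h and 6354 at 4 h, which is 6.48-fold higher at 2 h and 9.68-fold higher at 4 h (9.08 to 10.3). By 4 h change it ranked 716 of 17854 genes. Psme2b, a protein-coding copy 99.4% identical over 794 bases, was at 329, 1301 and 1862, and the authors' counting could have split reads between them. With the reads of both added, the 4 h value was 8.34-fold higher.

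Its partner Psme1 had the smallest change of the 5. Its value was 1127 at 0 h, 3182 at 2 h and 4198 at 4 h, 3.72-fold higher at 4 h (3.54 to 3.93). Psmb10, which replaces Psmb7, was at 752 at 0 h, 4437 at 2 h and 6239 at 4 h, 5.9-fold higher at 2 h and 8.3-fold higher at 4 h (7.81 to 8.82). For these genes most of the difference from 0 h was already present at 2 h.

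Psmb8, which replaces Psmb5, was at 857 at 0 h, 3308 at 2 h and 5338 at 4 h, 6.23-fold higher at 4 h (5.88 to 6.6). Psmb9, which replaces Psmb6, was at 273 at 0 h, 1114 at 2 h and 1814 at 4 h, 6.65-fold higher at 4 h (6.01 to 7.38). Both genes share exon bases with a gene on the opposite strand, 212 for Psmb9 with the peptide transporter gene Tap1 and 259 for Psmb8 with the antisense Gm20496. Tap1 was at 796, 7383 and 13456. Whether counting used strand is not given in the sources used here, so reads of the shared stretches cannot be assigned.

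**Figure D1:**
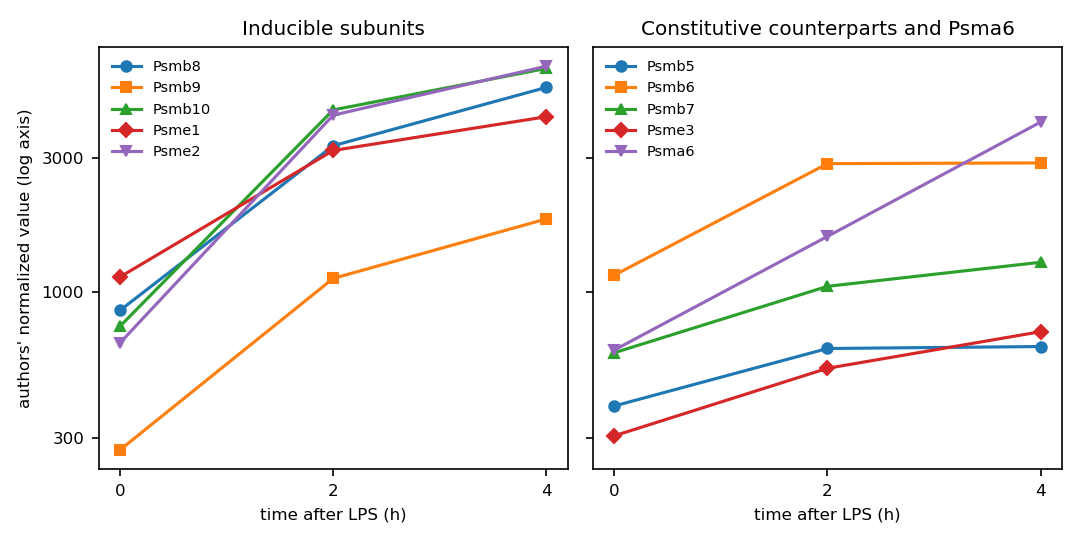
Authors' normalised read counts (y, log axis) at 0, 2 and 4 h of LPS (x), 1 library per point, for the inducible subunits (left) and their counterparts with Psma6 (right). All 5 inducible genes were higher at 2 h and again at 4 h, on the authors' scale and with equal library totals, while Psmb6 was at 1144, 2856 and 2873.

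The subunits that the inducible forms replace were also higher after LPS on the authors' scale, by less. Psmb5, the chymotrypsin-like subunit, was at 391 at 0 h, 627 at 2 h and 637 at 4 h, 1.63-fold higher at 4 h (1.48 to 1.8) but 0.92-fold with equal library totals. Psmb6, the caspase-like subunit, was at 1144 at 0 h, 2856 at 2 h and 2873 at 4 h, 2.51-fold higher at 4 h (2.38 to 2.65). Psmb7, the trypsin-like subunit, was at 605 at 0 h, 1044 at 2 h and 1272 at 4 h, 2.1-fold higher at 4 h (1.95 to 2.27). Psme3, which forms an activator ring found mainly in the nucleus, was at 306 at 0 h, 533 at 2 h and 719 at 4 h, 2.35-fold higher at 4 h (2.11 to 2.61). With equal library totals the 4 h folds were 1.42 for Psmb6, 1.19 for Psmb7 and 1.33 for Psme3.

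The ratio of an inducible subunit to its counterpart in 1 library does not depend on the library's factor. In reads per length of transcript, at 0, 2 and 4 h in turn, Psmb8 to Psmb5 was 1.21 (1.1 to 1.33), 2.91 (2.57 to 3.32) and 4.63 (4.36 to 4.92). Psmb10 to Psmb7 was 1.1 (1.01 to 1.2), 3.76 (3.4 to 4.16) and 4.34 (4.15 to 4.54). Both pairs went from near-equal levels per length to an excess of the inducible form, with 4 h ratios 3.83 and 3.95 times those at 0 h. Without the length correction the 0 h ratios were 2.19 and 1.24, so the near-equal start depends on the transcripts chosen. Exons of Psmb7 share 253 bases with Nek6 on the opposite strand, and Nek6 was at 464, 1564 and 1664.

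Psmb9 stayed below Psmb6 per length at each time. Its ratio to Psmb6 at 0, 2 and 4 h was 0.141 (0.126 to 0.157), 0.23 (0.207 to 0.255) and 0.373 (0.357 to 0.389). Psme1 to Psme3 was 8.82 (7.96 to 9.78), 14.3 (12.5 to 16.5) and 14 (13.2 to 14.8) in the same order, so the intervals at 2 h and 4 h overlap. Psme2 to Psme3 was 5.93 (5.32 to 6.63), 22.1 (19.3 to 25.3) and 24.5 (23.1 to 25.9). With the reads of Psme2b added to those of Psme2, a choice made after seeing the data, these became 8.91 (8.03 to 9.89), 28.9 (25.3 to 33) and 31.6 (29.9 to 33.5). Psme2 to Psme1 at 0 h was 0.673 without the copy and 1.01 (0.943 to 1.08) with it, and at 4 h 1.75 and 2.26, so their order at 0 h depends on how these reads were divided. Another choice of transcript would move a ratio by the same factor at every time.

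**Figure D2:**
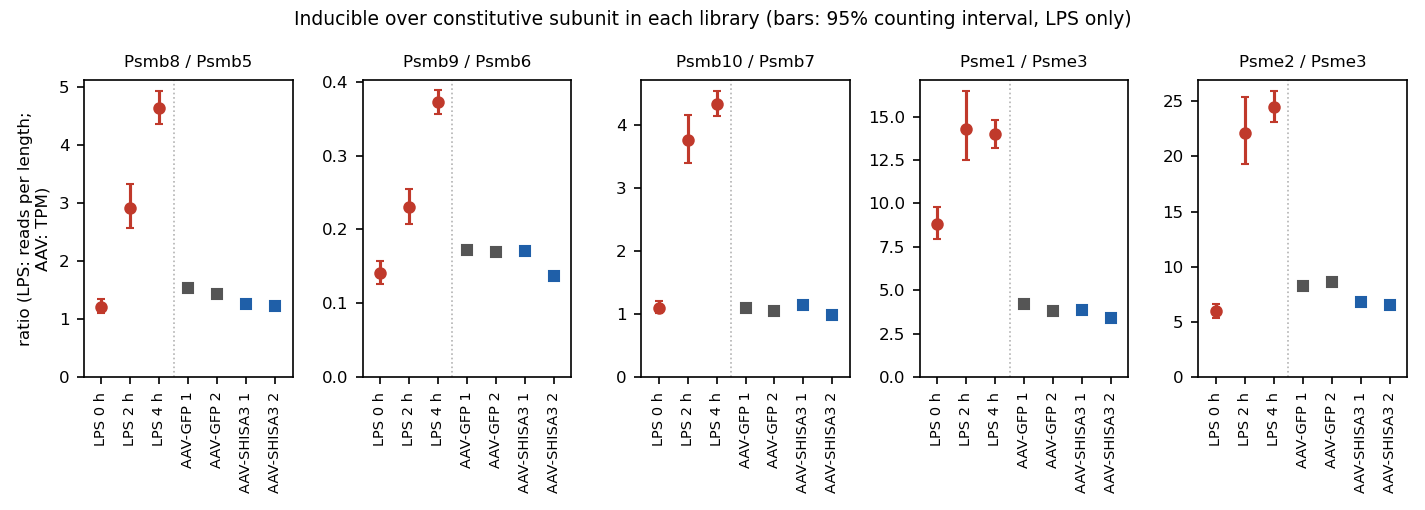
Ratio of each inducible subunit to its counterpart (y, from 0) in each of the 7 libraries (x), in reads per length with 95% counting bars for LPS and in TPM for AAV. The LPS ratios at 2 h and 4 h are above that at 0 h for all 5 pairs. Both AAV-SHISA3 samples are below both AAV-GFP samples for Psmb8 to Psmb5 and Psme2 to Psme3, an order that 41.2% of all single genes tested also had.

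Of the 48 genes, 47 passed the filter on low values. At 2 h, 10 of the 47 (21.3%) were past 2-fold higher, against 20.5% of all genes kept, which is near the background, and 5 of the 10 were the inducible subunits. At 4 h, 22 of the 47 (46.8%) were past 2-fold higher, against 22.2% of all genes. The 1 gene past 2-fold lower at 2 h was Psma8, against 24.7% of all genes, and 0 were past 2-fold lower at 4 h, against 23.6%. Without the inducible subunits, 5 of 42 (11.9%) were past 2-fold higher at 2 h and 17 of 42 (40.5%) at 4 h.

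These counts depend on how the libraries are put on 1 scale. The authors' values total 1.77 times as much at 4 h as at 0 h, and scaling the recovered reads to equal totals moves the median log2 change of all genes to -0.71 at 2 h and -0.83 at 4 h. On that scale 4 of the 47 members (8.51%) were past 2-fold higher at 2 h, against 13.9% of all genes, and 2 (4.26%) past 2-fold lower, against 41.2%. At 4 h 8 (17%) were past 2-fold higher, against 13.4% of all genes, and 5 (10.6%) past 2-fold lower, against 44.7%. Those 8 were the 5 inducible genes, Psma3, Psma6 and Psmd10. The other members past 2-fold higher at 4 h on the authors' scale were not past it on this scale. The 22 higher at 4 h on the authors' scale were thus more than the background share, and the 8 with equal totals were near it. A change of scale shifts all genes of a library almost alike, so distances from the median of all genes are kept by construction and are given as a description. At 4 h the 14 constitutive 20S genes (without Psma8) lay 1.21 above it on the authors' scale and 1.17 with equal totals, the 19S genes 0.83 and 0.79, and the inducible genes 2.77 and 2.74. As a share of all reads, the inducible genes made 365 RPM at 0 h, 1027 at 2 h and 1349 at 4 h, with Wilson 95% intervals of 356 to 375, 1004 to 1051 and 1337 to 1362. The constitutive 20S genes made 1024, 1061 and 1361 RPM (1008 to 1039.8, 1037 to 1085 and 1348 to 1374), and the 17 genes of the 19S cap made 1364, 1308 and 1346 RPM.

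**Figure D3:**
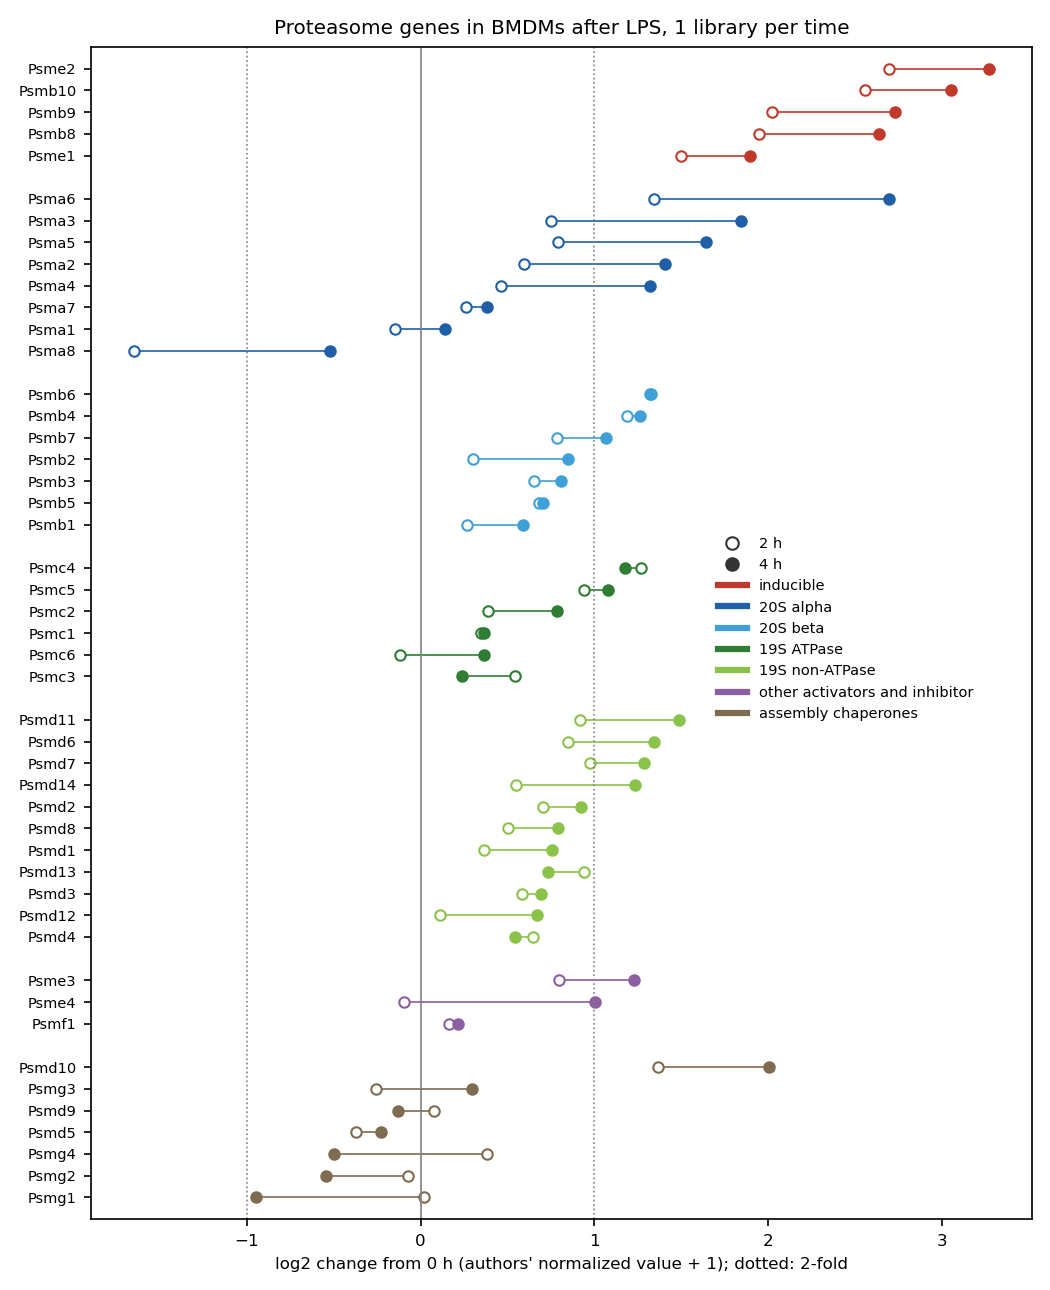
Log2 change of the normalised read count plus 1 from 0 h (x) for the 47 members kept (y, coloured by role), with open circles at 2 h and filled circles at 4 h of LPS and dotted lines at 2-fold. On the authors' scale the inducible genes lie from 1.90 to 3.27 at 4 h. With equal library totals the 19S median falls below 0, to -0.04 at 4 h.

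Among the alpha subunits of the outer rings, Psma2 to Psma6 had a large part of their difference between 2 h and 4 h. Psma6 was at 619 at 0 h, 1572 at 2 h and 4017 at 4 h, 2.54-fold and then 6.49-fold higher than at 0 h (6.07 to 6.95 at 4 h). By 4 h change this constitutive gene ranked 1075 of 17854, between the inducible Psmb9 at 1046 and Psmb8 at 1139. Its window with the kappaB-type match is printed above. Psma3 was at 444 at 0 h, 749 at 2 h and 1601 at 4 h, 3.6-fold higher at 4 h, and Psma5 at 583 at 0 h, 1009 at 2 h and 1827 at 4 h, 3.13-fold higher. Near copies over 95% identical held 38.3% and 11.7% as many reads as these genes at 4 h, and with those added the folds were 3.58 and 3.04.

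Psma2 was at 863 at 0 h, 1304 at 2 h and 2287 at 4 h, 2.65-fold higher at 4 h. Psma4 was at 742 at 0 h, 1024 at 2 h and 1857 at 4 h, 2.5-fold higher. The ring did not change evenly, with Psma7 at 1025, 1227 and 1337 (1.31-fold, but 0.737-fold with equal library totals) and Psma1 at 994, 897 and 1096 (1.1-fold, but 0.623-fold). Psma8, a testis form of an alpha subunit, had 14, 1 and 11 reads, and its 2 h ratio of 0.242 has a counting interval of 0.00573 to 1.59.

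The beta subunits differed less between 2 h and 4 h. Psmb4, a non-cutting beta subunit, was at 859 at 0 h, 1963 at 2 h and 2063 at 4 h, 2.4-fold higher at 4 h. From 2 h to 4 h its value changed 1.05-fold (0.977 to 1.13), that of Psmb6 1.01-fold (0.947 to 1.07) and that of Psmb5 1.02-fold (0.892 to 1.16). The lowest 4 h change of the group was that of Psmb1, at 986, 1186 and 1481 (1.5-fold, but 0.849-fold with equal library totals). Between 2 h and 4 h the median log2 change was 0.86 over the 8 alpha genes, 0.16 over the 7 beta genes and 0.58 over the 5 inducible genes, against 0.05 for all genes. In that interval 4 of the 47 members (8.51%) were past 2-fold higher, namely Psma3, Psma6, Psma8 and Psme4, against 17.9% of all genes, and 0 were past 2-fold lower, against 15.2%.

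**Figure D4:**
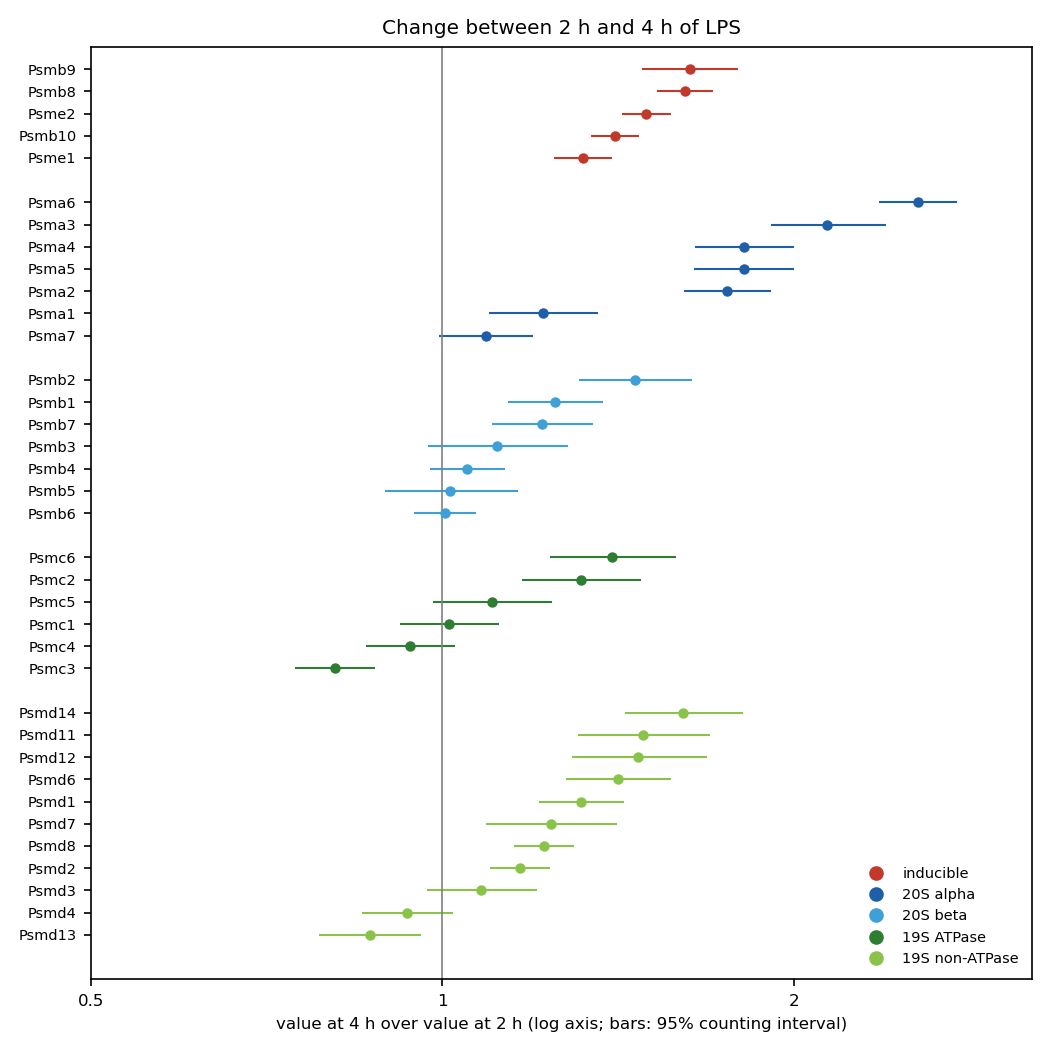
Value at 4 h over value at 2 h of LPS (x, log axis) for the inducible, core and cap genes except Psma8 (y, coloured by role), with 95% counting intervals as bars. On the authors' scale Psma2 to Psma6 lie between 1.75-fold and 2.55-fold, while Psmb4, Psmb5 and Psmb6 lie between 1.01-fold and 1.05-fold and fall below 1 with equal library totals.

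In the 19S cap, the median log2 change of the 6 ATPases was 0.57 at 4 h on the authors' scale and -0.25 with equal library totals. Psmc4 was at 580.2 at 0 h, 1398 at 2 h and 1312 at 4 h, 2.26-fold higher at 4 h, and Psmc5 at 401 at 0 h, 769 at 2 h and 847 at 4 h, 2.11-fold higher. Psmc3 had the lowest change of the ring, at 1242, 1808 and 1463 (1.18-fold, but 0.665-fold with equal totals), and its value at 4 h was 0.809 times that at 2 h (0.748 to 0.876). The ATPases are paralogs that sit in 1 ring, and their values did not move by 1 common factor.

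Of the 11 non-ATPases of the cap, 4 were past 2-fold higher at 4 h, against 22.2% of all genes, and 0 with equal library totals, against 13.4%. Psmd11, a subunit of the lid, was at 316 at 0 h, 598 at 2 h and 889 at 4 h, 2.81-fold higher at 4 h, or 2.37-fold with its near copies added. Psmd14, the deubiquitinase that strips ubiquitin from substrates, was at 498 at 0 h, 729 at 2 h and 1173 at 4 h, 2.36-fold higher. The lid subunits Psmd6 (527, 948 and 1341) and Psmd7 (319, 629 and 779) were 2.55-fold and 2.44-fold higher. Psmd4, a ubiquitin receptor, had the lowest 4 h change, at 878, 1374 and 1282 (1.46-fold, but 0.825-fold with equal totals). Over all 17 cap genes the median log2 change was 0.58 at 2 h and 0.78 at 4 h on the authors' scale, and -0.08 and -0.04 with equal library totals.

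Of the other regulators, Psme4, a large activator of the core, was at 1979 at 0 h, 1852 at 2 h and 3964 at 4 h, 0.936-fold at 2 h and 2.0-fold at 4 h. Of the 22 members past 2-fold higher at 4 h it had the smallest change, and it was no longer past 2-fold with equal library totals (1.13-fold), with TMM factors (1.94-fold) or with a pseudocount of 5. Psmd2, a scaffold of the cap, was the nearest of those not past 2-fold, at 1844, 3005 and 3503 (1.9-fold). Psmf1, known as an inhibitor of the core in vitro, was at 261, 293 and 304, 1.16-fold at 4 h and 0.657-fold with equal totals.

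The assembly chaperones, which hold partly built particles and leave the finished proteasome, had a median log2 change of -0.23 at 4 h, which turned to 0.14 when each library was centred on its median. With equal library totals it was -1.05, and 4 of the 7 were past 2-fold lower, against 44.7% of all genes, while 0 of the 7 were on the authors' scale, against 23.6%. Psmg1, which helps to start the alpha ring, was at 66.9 at 0 h, 67.7 at 2 h and 34.2 at 4 h, 0.512-fold at 4 h (0.368 to 0.706), from 104, 31 and 63 reads. Its partner Psmg2 was at 59.8, 56.8 and 40.8 (0.681-fold, 0.496 to 0.934). Psmg4 was at 109, 142 and 76.6, 0.705-fold at 4 h (0.56 to 0.887). All of these 3 were lower at 4 h under each scaling. Psmd10, a chaperone of the ATPase ring, was at 214 at 0 h, 555 at 2 h and 864 at 4 h, 4.03-fold higher at 4 h (3.58 to 4.55). Psmb11, which is used in the thymus cortex, had 1, 0 and 0 reads and failed the filter. A count of 0 allows up to 3 reads in a library.

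With AAV-SHISA3 no proteasome gene passed the test. The AAV values are TPM, which correct reads for transcript length and depth, so levels can be compared between genes. limma with a mean-variance trend on log2(TPM + 1) tested the 11218 genes whose mean reached 1 TPM. At a Benjamini-Hochberg adjusted p of 0.05 it called 2.23% of them higher and 4.1% lower, and 0 of the 47 members kept. At an unadjusted p of 0.05 there were 5 members (10.6%), all lower, against 28.0% of all genes. The other 10 fits also called 0 members, with 0 to 10 at the unadjusted level. The median log2 difference, AAV-SHISA3 minus AAV-GFP, was -0.02 over the members and -0.10 over all genes. Both AAV-SHISA3 samples lay above both AAV-GFP samples for 7 of 47 members (14.9%, against 18.2% of all genes) and below for 14 (29.8%, against 41.2%). Groups of 2 cannot reach a p below 0.333 in a two-sided exact permutation test.

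The inducible subunits were expressed in both AAV groups. Psme2 had the highest mean level of the 48 with AAV-GFP, and was at 615 and 670.2 TPM (AAV-GFP) against 576 and 541 TPM (AAV-SHISA3). Its samples did not overlap, and the log2 difference was -0.20 (95% interval -0.39 to -0.01, limma adjusted p = 0.168). Psmb8, next in level, was at 613 and 563 TPM (AAV-GFP) against 537 and 498 TPM (AAV-SHISA3), also without overlap, with a log2 difference of -0.18 (-0.38 to 0.01, limma adjusted p = 0.202).

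The other 3 inducible genes overlapped between the groups. Psmb9 was at 82.4 and 71.8 TPM (AAV-GFP) against 77.7 and 63.5 TPM (AAV-SHISA3), a log2 difference of -0.13 (-0.44 to 0.18). Psmb10 was at 211 and 196 against 197 and 175 TPM, a difference of -0.13 (-0.35 to 0.09). Psme1 was at 312 and 295 against 325 and 279 TPM, a difference of -0.01 (-0.25 to 0.22). The intervals of the 5 inducible genes run from -0.44 to 0.22, and each leaves out differences beyond its own bounds only.

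Their counterparts did not pass either. Psmb5 was at 400.2 and 395 TPM (AAV-GFP) against 425 and 407 TPM (AAV-SHISA3), a log2 difference of 0.06 (-0.10 to 0.23). Psmb6 was at 478 and 425 against 455 and 466 TPM (0.03 on the log2 scale) and Psmb7 at 192 and 186 against 172 and 179 TPM (-0.11). Psme3 was at 74.5 and 78.1 against 84.2 and 82.4 TPM, a log2 difference of 0.12 (-0.06 to 0.31).

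The ratio of Psmb8 to Psmb5 in TPM was 1.53 and 1.42 with AAV-GFP and 1.26 and 1.22 with AAV-SHISA3, with both AAV-SHISA3 samples below. The ratio of Psme2 to Psme3 was 8.25 and 8.58 with AAV-GFP and 6.84 and 6.57 with AAV-SHISA3, again with both below. The mean ratios with AAV-SHISA3 were 0.841 and 0.796 times those with AAV-GFP. The other 3 pairs overlapped between the groups, as Psmb9 to Psmb6 at 0.172 and 0.169 with AAV-GFP and 0.171 and 0.136 with AAV-SHISA3. No test was run on a ratio, given the smallest p stated above. Of all single genes tested, 41.2% also had both AAV-SHISA3 samples below, and no such share was computed for ratios.

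Among all roles, Psmd9, a chaperone of the cap, had the largest AAV difference in size. It was at 25.9 and 25.5 TPM (AAV-GFP) against 18.9 and 21.4 TPM (AAV-SHISA3), a log2 difference of -0.34 (-0.59 to -0.08, limma adjusted p = 0.108). Its exons share 1849 bases with the noncoding Gm26745 on the opposite strand. The others at an unadjusted p under 0.05 were Psme4 (32.2 and 30.7 against 27 and 25.5 TPM, log2 difference -0.25), Psma2 (71.9 and 68.2 against 61.8 and 58 TPM, -0.22), Psme2 as above, and Psmc1 (230.2 and 219 against 199.6 and 198 TPM, -0.17).

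The largest differences of the inducible genes (Psme2, as above) and the other regulators (Psme4, -0.48 to -0.03) had intervals that leave out 0. In the 20S alpha, 20S beta, 19S ATPase and 19S non-ATPase groups, the largest differences had intervals that include 0. Psmc6 was at 74.3 and 60.7 TPM (AAV-GFP) against 50.6 and 58.2 TPM (AAV-SHISA3), a log2 difference of -0.30 (-0.62 to 0.01). Psmd8 was at 377 and 348 against 428 and 389 TPM, 0.17 (-0.03 to 0.38). Psma8 was at 1.15 and 1.46 against 1.78 and 1.88 TPM, 0.30 (-0.17 to 0.77), a low level on which the added 1 weighs. Psma6, with its large LPS change, overlapped between the groups at 548 and 556 against 636 and 535 TPM, 0.08 (-0.16 to 0.32). Psmb11 was at 0 and 0.25 against 0.23 and 0 TPM and was not tested. The median log2 differences were 0.02 for the constitutive 20S genes, which ran from -0.02 (without AAV-SHISA3 replicate 1) to 0.07 (without AAV-GFP replicate 1) when 1 sample was left out, -0.04 for the 19S genes, which turned to 0.08 on centring the samples, and -0.13 for the inducible genes, against -0.10 for all genes. Centring the samples moved that of the inducible genes to -0.01, and leaving out 1 sample moved it to between -0.24 (without AAV-SHISA3 replicate 1) and -0.04 (without AAV-SHISA3 replicate 2).

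**Figure D5:**
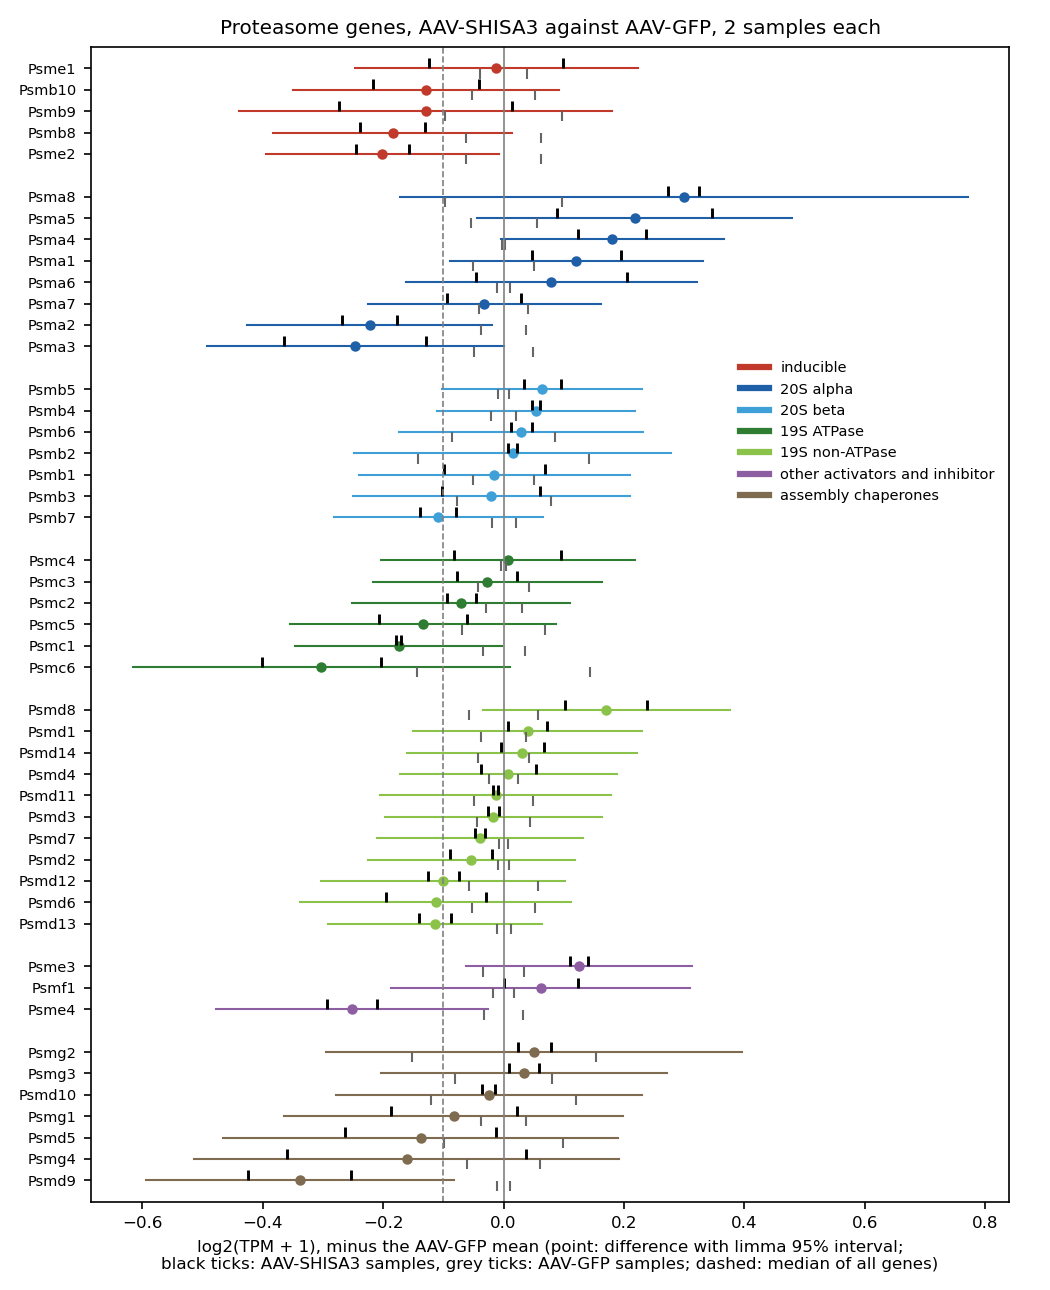
Differences from the AAV-GFP mean in log2(TPM + 1) (x) for the 47 members kept (y, coloured by role). Points are AAV-SHISA3 minus AAV-GFP with limma 95% intervals, black ticks the 2 AAV-SHISA3 samples, grey ticks the 2 AAV-GFP samples, and the dashed line the median of all genes. The differences run from -0.34 for Psmd9 to 0.30 for Psma8, and none passed the adjusted threshold.

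Genes that work beside the proteasome were counted in the same way. Of 15 partners of the proteasome, 4 were past 2-fold higher and 3 past 2-fold lower at 4 h of LPS. Zfand5, which stimulates the proteasome, had the highest change, at 906 at 0 h, 2963 at 2 h and 6570.4 at 4 h, and Ddi2, a protease that activates Nfe2l1, the lowest, at 3482, 526 and 743. With AAV-SHISA3, 2 of the 15 were lower and 0 higher. These genes, named after their values were seen, were Nfe2l1 and Zfand2a. Nfe2l1, a transcription factor of proteasome genes, was at 177 and 180.4 TPM (AAV-GFP) against 132 and 119 TPM (AAV-SHISA3) (log2 difference -0.51, limma adjusted p = 0.0307, and 0.0197 to 0.194 over 11 fits, of which 4 passed). Zfand2a, a proteasome-binding stress protein, was at 34.7 and 35.6 against 24.5 and 25.5 TPM (-0.47, limma adjusted p = 0.0397, and 0.031 to 0.205 over 11 fits, of which 4 passed). The lowest difference, that of Uchl5 at -0.62, did not pass, and the highest was that of Txnl1 at 0.11.

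The class I pathway had 9 of 17 genes past 2-fold higher and 1 past 2-fold lower at 4 h of LPS. The extremes were Nlrc5, an activator of class I genes, at 936, 6972 and 17141, and the peptidase Thop1 at 215, 142 and 81.5. With AAV-SHISA3 limma called 0 of the 17 after adjustment and 3 at an unadjusted p of 0.05, with differences from -0.36 for Calr to 0.27 for Nlrc5. Of 12 regulators of the interferon response, 11 were past 2-fold higher and 1 past 2-fold lower at 4 h, from Irf7 (848, 8202 and 22393) to Ifngr1 (2780.2, 3070.2 and 1317). With AAV-SHISA3 limma called 0 of the 12 after adjustment and 3 at the unadjusted level, with differences from -0.14 for Irf7 to 0.28 for Irf2.

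Ubiquitin supply had 3 of 17 genes past 2-fold higher and 1 past 2-fold lower at 4 h of LPS. Faf1, a cofactor of the unfolding ATPase Vcp, had the lowest change, at 423, 334 and 209. With AAV-SHISA3 limma called 0 of these after adjustment and 6 at the unadjusted level, and the lowest difference was that of Faf1 at -0.34. Among 11 genes of other routes of protein breakdown, 0 were past 2-fold higher and 3 past 2-fold lower at 4 h. The peptidase Tpp2 was highest at 1438, 1262 and 2652, and the autophagy receptor Nbr1 lowest at 2515, 891 and 469.5. Nbr1 was also the 1 gene of the 11 called with AAV-SHISA3, at 35.3 and 35.3 against 22.3 and 23.6 TPM (log2 difference -0.60, limma adjusted p = 0.0272, and 0.0193 to 0.187 over 11 fits, of which 5 passed), and the highest difference was that of Sqstm1 at 0.17. The background shares given above apply to these lists too, and no list was tested as a whole.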

How the data were processed

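BMDM RNA was sequenced in 3 LPS libraries (1 per time) and 4 AAV samples. The LPS table holds signal values that the authors deposited, gene counts divided by a size factor, and the AAV table holds TPM that the authors deposited; both units were inferred from the values. The submitters name mm9; the aligner and strand setting are not given in the sources used here. Reads were recovered from the steps of the LPS values. LPS changes were log2 of value plus 1 at a mean of at least 1, with no test. AAV groups were compared with limma 3.58.1 (R 4.3.3, trend, log2(TPM + 1), Benjamini-Hochberg over all genes). It was also run on simulated data with larger planted changes than those of the members. That run does not bear on differences as small as the members' or on technical replication. TPM keeps no depth. TMM factors came from edgeR 4.0.16. Near copies (at least 95% identity over 300 bases) were found with BLAST 2.17.0 in GENCODE M21. Python 3.11.15 did the rest. Members and lists were chosen with earlier results of these data known. Named were the inducible genes and counterparts, the highest and lowest 4 h change and largest AAV difference of each role, members past a threshold and those with 3 reads or fewer. Columns not used numbered 0. Single values of some genes in the pathway lists are not reported here.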

Additional observations from a re-analysis of the deposited data

How the results depend on the processing

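No member was called with AAV-SHISA3 in any of the 11 fits, whose lowest adjusted p was 0.0836, in the fit with a replicate block. That replicate block gave 10 members at an unadjusted p under 0.05 in place of 5, called 1275 genes in place of 710, and was the 1 fit in which the transgene Shisa3 passed (limma adjusted p = 0.0287, against 0.138 without the block); the deviations of same-numbered samples correlated at 0.188, and with 2 pairs the numbers were not taken to pair samples. Calls over all genes fell to 5 without the trend, to 0 without the filter, and to 0, 0, 15 and 34 when AAV-GFP replicate 1 or 2 or AAV-SHISA3 replicate 1 or 2 was left out. The AAV median of the 19S genes turned to 0.0766 and that of the constitutive 20S genes moved to 0.138 when samples were centred; leaving out 1 sample gave -0.0618 to -0.0310 for the 19S genes and -0.0192 to 0.0709 for the constitutive 20S genes, so the sign of the latter is not fixed. That of the inducible genes went from -0.13 to -0.01 on centring, and from -0.24 to -0.04 over the fits that left out 1 sample.

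With equal library totals, LPS members past 2-fold were 4 higher (8.51%, against 13.9% of all genes) and 2 lower (4.26%, 41.2%) at 2 h and 8 (17.0%, 13.4%) and 5 (10.6%, 44.7%) at 4 h. Centred libraries gave 20 higher (42.6%, 26.9%) at 2 h and 32 (68.1%, 29.6%) at 4 h, a 1.5-fold line 24 higher (51.1%, 29.5%) at 2 h and 1 lower (2.13%, 32.9%) at 4 h, and a pseudocount of 5 gave 0 lower at 2 h, against 17.9% of all genes. Equal totals turned the 19S medians to -0.0759 at 2 h and -0.0393 at 4 h, and moved those of the constitutive 20S genes to 0.0060 and 0.34 and of the inducible genes to 1.37 and 1.91. Centring moved them to 0.90 and 1.16 (19S), 0.98 and 1.54 (20S) and 2.34 and 3.10 (inducible). Without a length correction the 4 h ratios were 8.38 (Psmb8 to Psmb5), 0.632 (Psmb9 to Psmb6), 4.91 (Psmb10 to Psmb7), 5.83 (Psme1 to Psme3) and 8.83 (Psme2 to Psme3), and with the reads of Psme2b added, an alternative chosen after seeing the data, the last ratio was 31.6 with the length correction. Equal totals and centring act on the scale of every gene by construction; the cause of the other changes was not tested. With 1 library per time, no test of LPS could be run and no library left out.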
